A study of Mus musculus with 12 samples.

Results

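The Ifit genes are interferon-induced genes that lie side by side on mouse chromosome 19. Their 4 rows, Ifit1, Ifit2, Ifit3 and I830012O16Rik (an older name of Ifit3b), were taken by name from the 23997 gene rows deposited for each library, and all 4 had a value above 0 in every library. The RNA was from bone marrow-derived macrophages (BMDMs) of C57BL/6 male mice aged 8 to 10 weeks, grown for 7 d with recombinant human macrophage colony-stimulating factor at 10 ng/ml. The 4 groups of 3 libraries were WT untreated, Pim1-/- untreated, WT with LPS and Pim1-/- with LPS, where LPS was given at 100 ng/ml for 4 h. The Pim1-/- mice were made with CRISPR/Cas9 and lack exons I to V of Pim1. The labels do not say whether the 3 libraries of a group came from separate animals or cultures, so the p-values measure the spread between these libraries, which may be technical.

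Type I interferon binds its receptor, a pair of chains named Ifnar1 and Ifnar2, and the receptor kinases Jak1 and Tyk2 then act on factors such as Stat2. Stat2 joins Irf9 in a complex that binds the interferon-stimulated response element, a short DNA motif in front of antiviral genes. LPS starts the same chain in macrophages through Tlr4, the adaptor Ticam1 (TRIF), the kinase Tbk1 and the factor Irf3, which switches on Ifnb1, and Irf3 can also act on Ifit genes directly. The Ifit proteins are built of tetratricopeptide repeats and have no known enzyme activity. Ifit1 (also called ISG56) binds viral RNA whose cap lacks a methyl group that host mRNA carries. Ifit2 (ISG54) binds RNA rich in A and U, and Ifit3 forms complexes with the other members.

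The cluster spanned 99.3 kb on the GRCm38 build in the GENCODE annotation. Ifit2 (chr19:34550694-34576419), Ifit3 (chr19:34583531-34588731), Ifit3b (chr19:34607970-34613401) and Ifit1 (chr19:34640871-34650009) all lie on the plus strand. A pair of related genes, Ifit1bl1 (row Gm14446, chr19:34592891-34601956) and Ifit1bl2 (row 2010002M12Rik, chr19:34617049-34640743), lie between them on the minus strand. The RefSeq extent of Ifit1bl1 runs on to position 34662981, opposite Ifit3b and Ifit1. The libraries were made with a stranded kit, but no source used here says whether the counting used the strand.

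The promoter windows of the members are shown because the members rose together after LPS and because the interferon-stimulated response element is read from such windows. Each window holds 250 bases before and 50 bases after a RefSeq start, on the plus strand of GRCm38.p6. Capitals mark matches to the core of the element, GAAANNGAAA, or TTTCNNTTTC on the opposite strand.
Ifit1, chr19:34640639-34640938: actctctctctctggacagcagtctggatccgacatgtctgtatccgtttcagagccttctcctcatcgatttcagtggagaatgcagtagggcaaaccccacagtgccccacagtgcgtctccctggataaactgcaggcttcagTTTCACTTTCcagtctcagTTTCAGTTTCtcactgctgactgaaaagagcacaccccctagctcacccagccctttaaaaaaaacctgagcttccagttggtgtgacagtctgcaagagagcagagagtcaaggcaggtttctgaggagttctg
Ifit3, chr19:34583279-34583578: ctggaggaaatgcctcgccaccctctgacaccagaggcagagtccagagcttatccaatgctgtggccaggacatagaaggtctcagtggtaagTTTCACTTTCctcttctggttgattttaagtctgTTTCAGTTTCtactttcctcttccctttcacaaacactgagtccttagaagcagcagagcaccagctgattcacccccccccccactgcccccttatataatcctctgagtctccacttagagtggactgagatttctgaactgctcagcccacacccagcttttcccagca
Ifit3b, chr19:34607707-34608006: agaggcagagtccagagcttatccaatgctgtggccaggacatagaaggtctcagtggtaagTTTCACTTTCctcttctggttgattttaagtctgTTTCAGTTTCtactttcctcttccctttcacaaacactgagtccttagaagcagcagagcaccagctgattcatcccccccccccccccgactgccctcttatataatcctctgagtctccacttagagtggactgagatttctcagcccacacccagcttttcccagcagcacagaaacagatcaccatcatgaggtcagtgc
Ifit2, chr19:34550444-34550743: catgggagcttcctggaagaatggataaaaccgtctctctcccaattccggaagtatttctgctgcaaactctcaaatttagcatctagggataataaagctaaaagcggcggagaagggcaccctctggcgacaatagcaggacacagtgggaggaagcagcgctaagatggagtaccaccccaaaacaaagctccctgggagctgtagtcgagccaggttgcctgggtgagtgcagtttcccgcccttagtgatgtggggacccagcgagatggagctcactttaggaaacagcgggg
The core was searched on both strands, and matches to it did not overlap each other. Ifit1 held 2 matches, at 104 to 95 and 85 to 76 bases before the start. Ifit3 held 2 matches, at 156 to 147 and 122 to 113 bases before the start. Ifit3b held the same sequences in the same order, at 188 to 179 and 154 to 145 bases before its start. In the window of Ifit2 printed above, and in its other RefSeq window (chr19:34550838-34551137), these letters did not occur, which says only that they are not in these windows. Among 32851 windows of this length from all genes, 3.44% held at least 1 match and 0.23% held 2 or more. Ifit1bl1 held 1 match in each of its windows. The 2 matches of Ifit1bl2 are the ones of Ifit1 read from the other strand, since the windows of these neighbouring genes overlap. A match is a description of the sequence and not evidence that a factor bound there.

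Before the members are described, the libraries need a short account. Pim1 itself was at 21.5 to 24.96 FPKM in untreated WT libraries and at 8.00 to 9.51 in untreated Pim1-/- libraries. After LPS it was at 630.2 to 665 FPKM in WT and at 205 to 236 in Pim1-/- libraries, so the row was lower in the libraries labelled Pim1-/- but not absent. FPKM (fragments per kilobase of transcript and sequencing depth) divides a gene's fragments by its length and by a divisor set for each library. The files hold no counts, and the depth was estimated from the steps between low values at 36100000 to 46600000 fragments per library. The macrophage markers Csf1r, Mertk and Emr1 (Adgre1) were detected in every library, and the summed level of all 10 macrophage markers was 28076 to 30124 FPKM in untreated WT and 14539 to 15434 in untreated Pim1-/- libraries. After LPS the sums were 31617 to 32085 and 16307 to 18149 FPKM. Lyz2 alone was the main part of these sums, so they mostly follow this gene. Its means were 26301.5 FPKM in WT and 13296.8 in Pim1-/- libraries untreated, and 26785 and 13680 with LPS. The summed level of 6 genes of dividing cells was 17.5 to 20.8 FPKM in untreated WT and 303 to 312 in untreated Pim1-/- libraries, and 35.4 to 37.4 against 148 to 161 after LPS. All 10 macrophage markers were lower in Pim1-/- after LPS past the test and 9 of 10 without treatment, while 5 of 6 genes of dividing cells were higher after LPS (Mki67 was lower) and 6 of 6 without treatment. Over all genes tested, 42.2% were lower and 36.4% higher with LPS, and 42.8% were lower and 33.4% higher without treatment. Dendritic cell markers summed to between 4.78 and 7.19 FPKM over all libraries, B cell markers to at most 1.57, T and NK cell markers to at most 0.332 with Cd3e and Ncr1 listed at 0 throughout, and stromal markers to 2.56 to 2.95 in untreated WT, 0.770 to 1.05 in untreated Pim1-/-, 10.7 to 11.1 in WT with LPS and 2.87 to 3.63 in Pim1-/- libraries with LPS. Neutrophil markers summed to 72.8 to 76.4 FPKM in WT and 17.7 to 21.0 in Pim1-/- libraries after LPS, of which Lcn2, which macrophages also make, was the main part. Without treatment they summed to 1.64 to 2.01 FPKM in WT and 3.26 to 4.21 in Pim1-/- libraries, the other way. B cell markers summed to 1.34 to 1.57 FPKM in untreated WT and 0.824 to 1.12 in untreated Pim1-/- libraries. With LPS they summed to 0.472 to 0.765 and 0.275 to 0.432 FPKM. Dendritic cell markers summed to 6.23 to 6.53 FPKM in WT and 6.85 to 7.19 in Pim1-/- libraries with LPS, and overlapped without treatment. Itgax was the main part of these sums, with means of 3.81 and 4.97 FPKM with LPS. The others had means below 1 FPKM and went both ways with LPS. Siglech (0.576 and 0.0919) and Cd209a (0.380 and 0.134) were lower in Pim1-/- libraries, and Ccr7 (0.867 and 0.983) and Xcr1 (0.470 and 0.542) were higher. The macrophage, stromal, dividing-cell, neutrophil and B cell markers, and with LPS the dendritic cell sum through Itgax, move with the same genotype contrast as the results below. Their part in those results was not tested. In bulk RNA, fewer cells that carry a transcript and less of it in each cell cannot be told apart.

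In untreated macrophages the Ifit genes were low in WT cells and lower still in Pim1-/- cells. All 4 were called lower, a call that asks limma for p under 0.05, for an FDR (Benjamini-Hochberg) under 0.1 and for a change beyond 2-fold, where 3.37% of the 10581 genes tested were called lower. The groups did not overlap for any of the 4, as for 44.2% of all genes in that direction. The median difference of the members was −1.81 on the log2(FPKM + 1) scale, and that of all genes tested was −0.05. This scale understates the change of genes at low levels, so the ratio of the FPKM means is given beside each difference.

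Ifit1, the cap sensor, was at 4.87, 5.86 and 5.43 FPKM in the untreated WT libraries. In the untreated Pim1-/- libraries it was at 0.525, 0.724 and 0.604 FPKM. The highest Pim1-/- value was far below the lowest WT value. The means were 5.39 ± 0.497 and 0.618 ± 0.1002 FPKM (SD, n = 3), 8.72-fold lower in Pim1-/- cells. The difference was −1.98 on the log2(FPKM + 1) scale (SE 0.0681, 95% interval −2.13 to −1.83, adjusted p = 7.7e-13, limma), and 42 of the genes tested had a more negative difference. By the divisor estimated from the steps, these values rested on 453 to 588 fragments in each WT library and 59 to 71 in each Pim1-/- library.

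Ifit2, the member that binds AU-rich RNA, was at 5.80, 7.36 and 7.34 FPKM in untreated WT libraries. It was at 1.41, 1.67 and 1.41 FPKM in untreated Pim1-/- libraries. Here too the groups stood apart, but by less than for the other members in terms of the ratio. The means were 6.83 ± 0.898 and 1.497 ± 0.147 FPKM (SD, n = 3), 4.56-fold lower in Pim1-/- cells, with a difference of −1.64 on the log2(FPKM + 1) scale (SE 0.0771, adjusted p = 3.5e-11, limma).

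Ifit3, the partner of the other Ifit proteins, was at 7.80, 8.85 and 8.84 FPKM in untreated WT libraries. It was at 0.748, 0.428 and 0.729 FPKM in untreated Pim1-/- libraries, where the second library was the lowest. The means were 8.50 ± 0.604 and 0.635 ± 0.179 FPKM (SD, n = 3), 13.4-fold lower in Pim1-/- cells. The difference of −2.54 on the log2(FPKM + 1) scale (SE 0.0727, adjusted p = 8.9e-14, limma) was the largest of the 4 members, and only 13 of the genes tested had a more negative one.

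I830012O16Rik, the close copy of Ifit3, was the lowest member. It was at 1.73, 1.96 and 1.96 FPKM in untreated WT libraries and at 0.0598, 0.0685 and 0.0748 FPKM in untreated Pim1-/- libraries. The means were 1.88 ± 0.133 and 0.0677 ± 0.00753 FPKM (SD, n = 3), 27.8-fold lower in Pim1-/- cells. The Pim1-/- values correspond to 5, 5 and 6 fragments, and 5 fragments have an exact Poisson 95% interval of 1.62 to 11.7, which covers counting error only. The WT values correspond to 118, 143 and 156 fragments. The difference was −1.43 on the log2(FPKM + 1) scale (SE 0.0529, adjusted p = 1.9e-12, limma), the smallest of the 4 on this scale although the ratio was the largest. With a pseudocount of 0.01 in place of 1, the untreated differences became −3.11 for Ifit1, −2.18 for Ifit2, −3.76 for Ifit3 and −4.61 for I830012O16Rik, so their order and size depend on the pseudocount while their direction does not.

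**Figure D1:**
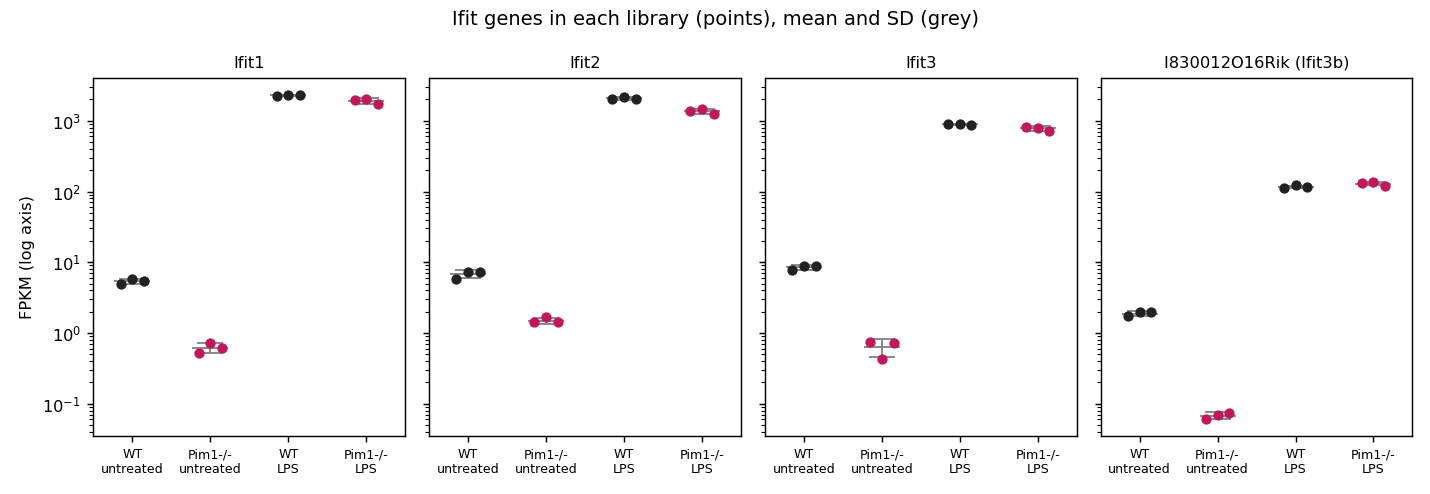
FPKM of the 4 Ifit genes (log axis) in each of the 12 libraries, as points, with the group mean and SD in grey, WT in black and Pim1-/- in red. Untreated Pim1-/- libraries lie below untreated WT libraries in all 4 panels, whereas after LPS the groups lie close together, and for I830012O16Rik they overlap.

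After LPS for 4 h all 4 members rose steeply in both genotypes. All 4 were called higher in WT cells, where 20.1% of the genes tested were called higher, and all 4 in Pim1-/- cells, where 14.6% were. Ifit1 rose from 5.39 to 2293 FPKM in WT means, 426-fold, and from 0.618 to 1903 FPKM in Pim1-/- means, 3080-fold. Only 21 of the genes tested had a larger rise than Ifit1 in WT cells and 8 in Pim1-/- cells, on the log2(FPKM + 1) scale (8.49 and 10.20). Ifit2 rose 303-fold in WT and 915-fold in Pim1-/- cells. Ifit3 rose 105-fold and 1232-fold, and I830012O16Rik rose 61.9-fold and 1911-fold, the latter against a Pim1-/- mean that rests on 5 or 6 fragments in each library. The untreated libraries enter both the baseline difference and the fold rise, so the larger rise in Pim1-/- cells is not independent of the lower baseline. Summed over the 4 members, the level went from 20.2 to 24.0 FPKM in untreated WT libraries to 5279 to 5532 with LPS. In Pim1-/- libraries the sum went from 2.75 to 2.89 FPKM to 3792 to 4415. The sum made up 0.622% to 0.658% of all FPKM in WT libraries with LPS and 0.532% to 0.601% in Pim1-/- libraries with LPS.

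The genotypes remained different after LPS, but by little, and not in 1 direction. Past the test (p under 0.05 and FDR under 0.1, whatever the fold), 3 members were lower and 1 was higher in Pim1-/- cells, where 42.2% of the genes tested were lower and 36.4% higher. None of the 4 differed more than 2-fold, as 5.15% of genes did on the lower side and 3.51% on the higher side. The median of the members was −0.24 on the log2(FPKM + 1) scale, and that of all genes was −0.03.

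Ifit2 showed the clearest remaining difference. It was at 2010, 2163 and 2039 FPKM in WT libraries with LPS and at 1396, 1469 and 1247 FPKM in Pim1-/- libraries with LPS. The groups were well apart, and the Pim1-/- mean of 1370 ± 113 FPKM was 66.2% of the WT mean of 2071 ± 81.1 FPKM (SD, n = 3). The difference was −0.60 on the log2(FPKM + 1) scale (SE 0.0771, 95% interval −0.76 to −0.43, adjusted p = 3.9e-06, limma), and it ran from −0.65 to −0.39 over all alternatives tried and libraries left out.

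Ifit1 was at 2252, 2339 and 2287 FPKM in WT libraries and at 1992, 2013 and 1703 FPKM in Pim1-/- libraries with LPS. The third Pim1-/- library was the lowest, and the groups did not overlap, as for 41.8% of all genes in that direction. The Pim1-/- mean of 1903 ± 173 FPKM was 83.0% of the WT mean of 2293 ± 44.1 FPKM (SD, n = 3), with a difference of −0.27 on the log2(FPKM + 1) scale (SE 0.0681, 95% interval −0.42 to −0.13, adjusted p = 0.0019, limma). This difference depends on how the libraries are scaled to each other. It was −0.08 after quantile normalization and −0.07 with every library scaled to the same FPKM sum, neither past the test. Ifit1 rested on 118000 to 129415 fragments in WT libraries with LPS, at a depth of 36100000 to 40800000. In Pim1-/- libraries with LPS it rested on 119320 to 157744, at a depth of 36600000 to 46600000. The difference after scaling by depth was not tested.

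Ifit3 was at 904, 908 and 878 FPKM in WT libraries and at 827, 797 and 722 FPKM in Pim1-/- libraries with LPS. These groups did not overlap either. The means were 896 ± 16.4 and 782 ± 54.0 FPKM (SD, n = 3), and the difference was −0.20 on the log2(FPKM + 1) scale (SE 0.0727, 95% interval −0.35 to −0.04, adjusted p = 0.021, limma), but it turned to 0.05 after quantile normalization and 0.01 with equal FPKM sums. Without the third Pim1-/- library with LPS it was −0.14 and no longer past the test.

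I830012O16Rik was the member that went the other way. It was at 114, 122 and 114 FPKM in WT libraries and at 132, 135 and 121 FPKM in Pim1-/- libraries with LPS. The lowest Pim1-/- library lay just under the highest WT library, so the groups overlapped. The means were 117 ± 4.49 and 129 ± 7.73 FPKM (SD, n = 3), and the difference of 0.15 on the log2(FPKM + 1) scale (SE 0.0529, 95% interval 0.03 to 0.26, adjusted p = 0.020, limma) rose to 0.38 after quantile normalization and 0.35 with equal FPKM sums, and turned to −0.15 when the rows of Ifit3 and I830012O16Rik were added before the fit. It also dropped below the test in 3 of the 12 fits that left out 1 library, namely the first WT library, the first Pim1-/- library and the second Pim1-/- library with LPS, which gave 0.13, 0.13 and 0.11.

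Whether the genotypes differed less with LPS than without was tested as an interaction over all 12 libraries, which is the difference with LPS minus that without treatment. All 4 members were called, each with a smaller deficit or none after LPS, in a direction in which 2.24% of the genes tested were called. The call of Ifit2 stood at the 2-fold threshold, and without the second or the third untreated WT library or the second Pim1-/- library with LPS its interaction was 0.996, 0.998 and 0.995, past the test but not 2-fold. The interaction was 2.34 for Ifit3 on the log2(FPKM + 1) scale (95% interval 2.12 to 2.56, adjusted p = 6.4e-11, limma), and 8 genes tested had a larger one. It was 1.71 for Ifit1 (95% interval 1.502 to 1.91, adjusted p = 1.0e-09), where 34 genes had a larger one. It was 1.58 for I830012O16Rik (95% interval 1.42 to 1.74) and 1.05 for Ifit2 (95% interval 0.81 to 1.28). The interval of Ifit2 did not reach those of the other members. The median over the 4 was 1.64 and that over all genes was 0.00. The Pim1-/- mean of Ifit1 minus the WT mean was −4.77 FPKM without treatment and −390.2 FPKM with LPS, whereas that of I830012O16Rik was −1.82 and 12.7 FPKM. With a pseudocount of 0.01 the interactions were 2.84 for Ifit1, 1.58 for Ifit2, 3.56 for Ifit3 and 4.76 for I830012O16Rik.

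**Figure D2:**
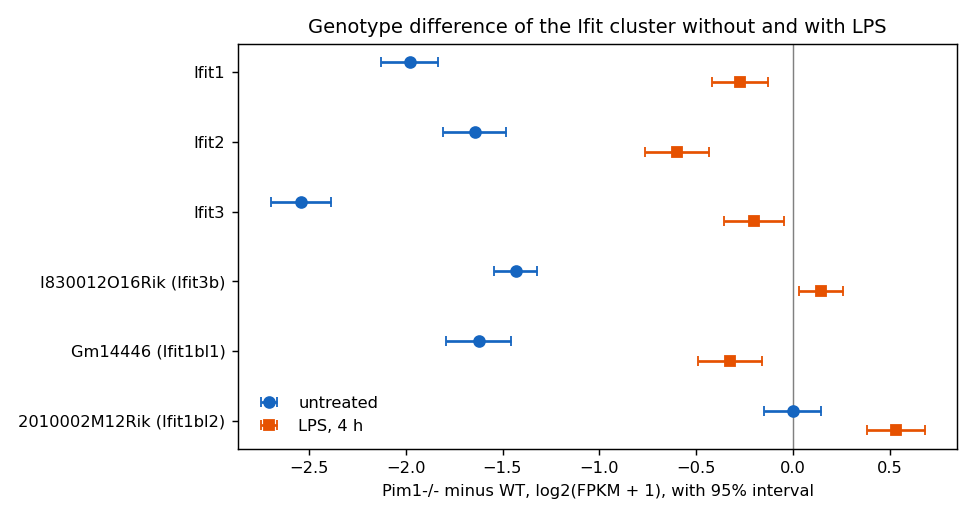
Difference between Pim1-/- and WT on the log2(FPKM + 1) scale, with 95% intervals from limma, for the 4 members and the related genes of the cluster, untreated (circles) and with LPS (squares). The intervals drawn for 2010002M12Rik are not to be read as a test, since it passed the filter only through the group where it is high. Untreated differences of the members run from −2.54 to −1.43 and those with LPS from −0.60 to 0.15, where the value of Ifit3 with LPS changes sign under quantile normalization and equal FPKM sums.

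Ifit3 and Ifit3b need to be read together. Aligned over 1697 bases their transcripts were 98.0% identical, and 31.7% of all 100-base windows of the Ifit3 transcript occur unchanged in that of Ifit3b. Reads from these stretches cannot be assigned to 1 of the genes, so the split between the rows is uncertain. The ratio of Ifit3 to I830012O16Rik within a library was 4.51, 4.52 and 4.51 in untreated WT libraries, and 12.5, 6.25 and 9.75 in untreated Pim1-/- libraries. With LPS it was 7.95, 7.45 and 7.67 in WT and 6.25, 5.89 and 5.99 in Pim1-/- libraries. The ratio was thus nearly fixed in untreated WT cells and spread widely where I830012O16Rik rested on 5 or 6 fragments. The sum of the rows depends less on the split between them. It is not free of it, since FPKM is per length and the transcripts are 1745 (Ifit3) and 2000 (Ifit3b) bases long. The sum was 10.4 ± 0.736 FPKM in untreated WT, 0.703 ± 0.178 in untreated Pim1-/-, 1013 ± 19.3 in WT with LPS and 912 ± 61.0 in Pim1-/- libraries with LPS (SD, n = 3). The difference of the sum was −2.74 without treatment and −0.15 with LPS on the log2(FPKM + 1) scale, and the interaction was 2.59. The transcripts of Ifit1 and Ifit2 share no 100-base window with another member, although Ifit1 shares some with the related Ifit1bl2.

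Because FPKM is per length, the members can also be ordered within a group. In untreated WT cells the order by mean was Ifit3, Ifit2, Ifit1 and I830012O16Rik, where the ranges of Ifit2 and Ifit1 met and the others did not. In untreated Pim1-/- cells Ifit2 came before Ifit3 and Ifit1, whose ranges overlapped, and I830012O16Rik was last. With LPS the order was Ifit1, Ifit2, Ifit3 and I830012O16Rik in both genotypes, with no overlap between neighbours. Ifit3 was thus the highest member in untreated WT cells and the third with LPS.

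A ratio between members inside a library does not depend on how that library was scaled, so the members were also compared with Ifit1 in this way. The log2 ratio of Ifit2 to Ifit1 was 0.25, 0.33 and 0.43 in untreated WT libraries and 1.43, 1.20 and 1.22 in untreated Pim1-/- libraries. With LPS it was −0.16, −0.11 and −0.17 in WT and −0.51, −0.45 and −0.45 in Pim1-/- libraries. Ifit2 was thus relatively high beside Ifit1 in untreated Pim1-/- cells and relatively low in Pim1-/- cells with LPS, and the genotypes did not overlap in either state. The mean ratio of Ifit3 to Ifit1 was lower by 0.65 on the log2 scale in untreated Pim1-/- cells (means 0.01 and 0.66), and the second library, at −0.76, was the lowest. Without that library the difference was −0.27, and without the first Pim1-/- library −0.90. With LPS the ratio of Ifit3 differed by 0.07, and the groups overlapped. The ratio of I830012O16Rik to Ifit1 differed by −1.67 without treatment, or −0.62 with 0.1 FPKM added to both genes, and by 0.42 with LPS. An exact two-sided permutation test of 3 libraries against 3 cannot give a p below 0.1. It gave exactly that for 5 of the 6 ratios (0.12 adjusted over the 6) and 0.2 for Ifit3 with LPS, so none passed at 0.05.

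**Figure D3:**
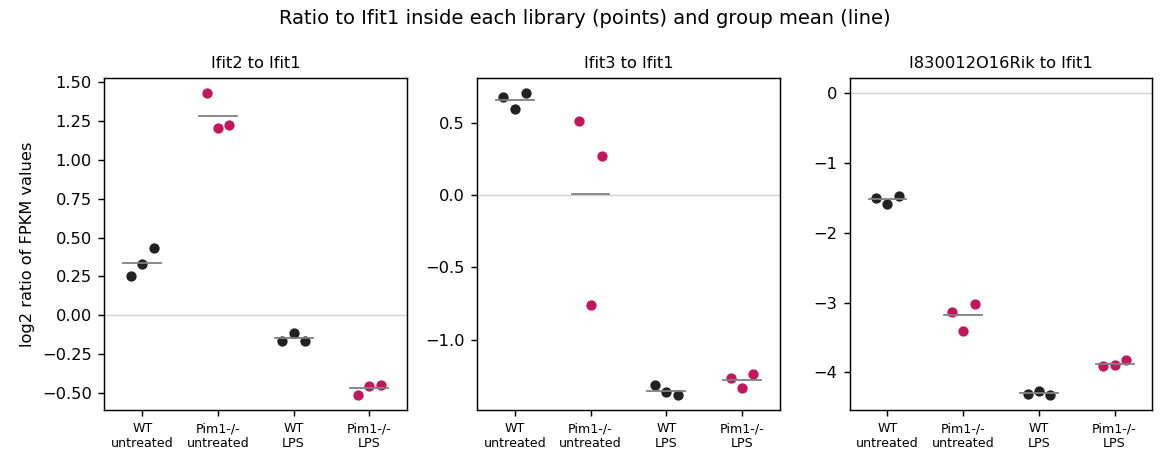
Log2 ratio of Ifit2, Ifit3 and I830012O16Rik to Ifit1 inside each library (points, WT black and Pim1-/- red) with the group mean as a line. Ifit2 lies above WT without treatment and below WT with LPS in all Pim1-/- libraries, and Ifit3 in untreated Pim1-/- libraries spreads from −0.76 to 0.51.

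The related genes of the cluster were looked at next. Ifit1bl1 (row Gm14446) was at 1.81, 2.59 and 2.24 FPKM in untreated WT libraries and at 0.0431, 0.0370 and 0.0337 FPKM in untreated Pim1-/- libraries, the latter from 4, 3 and 3 fragments. With LPS its mean was 114 ± 5.05 FPKM in WT and 91.4 ± 7.89 in Pim1-/- cells (SD, n = 3). The differences were −1.62 without treatment and −0.32 with LPS on the log2(FPKM + 1) scale, with an interaction of 1.30, all past the test, so its pattern had the same directions as that of Ifit1. With a pseudocount of 0.01 the untreated difference of Gm14446 was −5.53 and its interaction 5.20. Under quantile normalization and equal FPKM sums the difference of Gm14446 with LPS was not past the test. Ifit1bl2 (row 2010002M12Rik) was nearly silent without treatment, with 1 to 3 fragments in each library of either genotype. With LPS it was at 0.446, 0.507 and 0.768 FPKM in WT and at 1.39, 1.23 and 1.184 FPKM in Pim1-/- libraries. The difference of 2010002M12Rik with LPS was 0.53 on the log2(FPKM + 1) scale. Its row reached 1 FPKM in the 3 Pim1-/- libraries with LPS and in no other, so it passed the filter on low values only through the group where it is high, and no test is given for it. Its transcript shares 84 of its 100-base windows, or 2.6%, with that of Ifit1, so reads from these stretches cannot be assigned to 1 of the rows.

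The neighbours outside the cluster differed from the members in their values. Of the 4 nearest protein-coding genes on each side with a row in the files, 6 were expressed highly enough to be tested, and none of these 6 was called lower without treatment, where 3.37% of all genes were. For Ch25h and Kif20b, at means of 0.301 and 0.840 FPKM in untreated WT libraries, that call was not possible. A gene below 1 FPKM cannot fall beyond 2-fold on the log2(FPKM + 1) scale, so the count holds no information on these genes. Ch25h, which makes 25-hydroxycholesterol and is itself induced by interferon, was higher by 0.45 in untreated Pim1-/- cells (0.301 against 0.773 FPKM) and lower by 1.84 with LPS (86.9 against 23.5 FPKM). Its interaction of −2.29 was opposite in sign to that of every member. Lipa, the lysosomal acid lipase next to Ifit2, had differences of −0.15 without treatment and 0.48 with LPS. Fas, the death receptor, was lower in both states, by 0.36 and 0.52, and Acta2 was lower by 0.27 and 0.21. Kif20b, a kinesin of dividing cells on the far side of Ifit1, had differences of 2.72 and 1.68. It reached 1 FPKM only in Pim1-/- libraries and passed the filter through them alone, so these are given as values without a test. All these values are differences on the log2(FPKM + 1) scale.

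**Figure D4:**
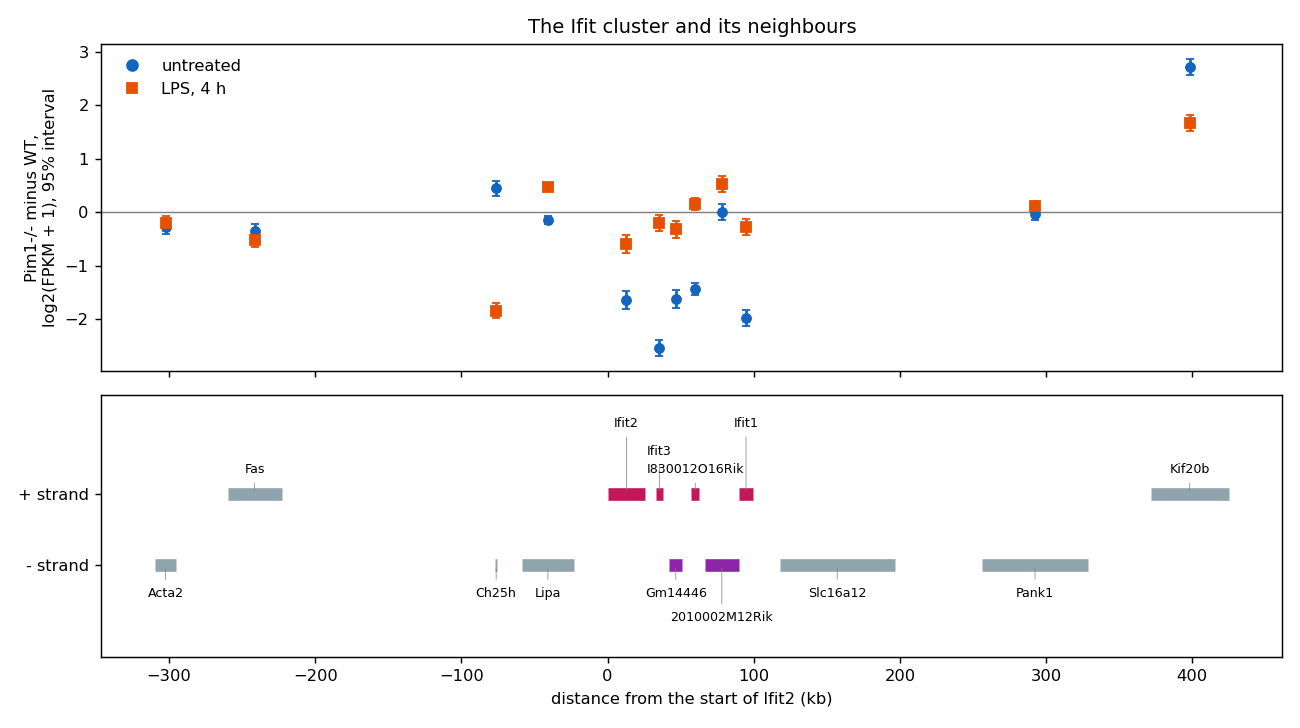
The Ifit cluster and its neighbours by distance from the start of Ifit2 in kb, with genes drawn on their strand below (members red, related genes purple, neighbours grey) and the difference between Pim1-/- and WT with 95% intervals above. Untreated differences of the members (circles) lie at −1.43 or lower while those of the neighbours lie between −0.36 and 2.72. The intervals drawn for Kif20b and 2010002M12Rik are not to be read as a test, since these genes passed the filter only through Pim1-/- libraries, where they are high. Ifit3 with LPS changes sign under quantile normalization and equal FPKM sums.

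The interferon pathway was then described from a list of 22 genes, ordered by role, of which Cd14 is also among the macrophage markers. Of the 21 that were tested, 16 were lower and 1 higher in untreated Pim1-/- cells past the test. Of all genes tested, 42.8% were lower and 33.4% higher there. With LPS 15 of the list were lower and 2 higher, beside 42.2% and 36.4% of all genes. Over the alternatives the counts with LPS ran from 13 to 16 lower and from 2 to 5 higher. The medians of the list were −0.46 without treatment and −0.38 with LPS, and those of all genes were −0.05 and −0.03. On the lower side 4 genes were called without treatment and 5 with LPS, where 3.37% and 5.15% of all genes were. Its interaction was past the test in both directions, 11 higher and 7 lower against 31.3% and 34.7% of all genes, and Socs1 was the only gene called, on the lower side, as were 4.43% of all genes.

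Ifnb1, the ligand, was listed at 0 in all 6 untreated libraries. With LPS it was at 9.52, 7.80 and 8.17 FPKM in WT and at 15.1, 17.0 and 14.5 FPKM in Pim1-/- libraries. Its level was thus higher in Pim1-/- cells, by 0.80 on the log2(FPKM + 1) scale (adjusted p = 3.9e-08, limma), while 3 of the 4 members were lower. Ifna4, the other ligand of the list, was listed at 0 throughout. Of the receptor chains, Ifnar1 had differences of −0.37 without treatment and −1.26 with LPS, and Ifnar2 of −0.06, not past the test, and −0.35. The receptor kinase Jak1 was lower by 0.46 and 1.30 and Tyk2 by 0.67 and 0.37. For Ifnar1 and Jak1 the deficit was larger with LPS, with interactions of −0.88 and −0.84 that were past the test, opposite in sign to the members.

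Stat2, which brings the transactivating part to the interferon-activated complex, was at 12.3 and 5.39 FPKM in untreated WT and Pim1-/- means and at 183 and 88.4 FPKM with LPS. Its difference was −1.06 and −1.04, with an interaction of 0.01 that was not past the test. Irf9, the DNA-binding partner, was lower by 0.53 without treatment, and with LPS its means were 63.7 and 63.1 FPKM. Irf9 therefore had an interaction in the direction of the members, of 0.52 (adjusted p = 3.2e-06, limma).

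Among the upstream genes, Tlr4 was higher in Pim1-/- cells by 0.41 and 0.81. The adaptors Ticam1 and Ticam2 were lower by 0.73 and 0.75 without treatment and by 0.38 and 0.45 with LPS. The kinase Ikbke was lower by 1.39 and 0.94, and Tbk1 by 0.35 and 0.55. Irf3, the factor that acts on Ifnb1, was lower by 0.17 without treatment, and its difference with LPS of 0.05 was not past the test. Traf3 was past the test in neither state.

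Irf7 and Irf1, factors that amplify the response, were lower in both states. Irf7 was at 8.83 FPKM in untreated WT and 2.02 in untreated Pim1-/- means, and at 818 and 396 FPKM with LPS. Its differences were −1.71 and −1.05, the latter beside −0.60 for Ifit2. Irf1 had differences of −1.28 and −0.37. Of the brakes on the pathway, Usp18 had differences of −0.61 and, not past the test, −0.12, and Socs1 had differences of −0.14 and −1.49.

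A second list held 15 other antiviral genes that act on RNA. In untreated Pim1-/- cells all 15 were lower past the test, and with LPS 14 were lower and 1 was higher, beside 42.8% of all genes lower without treatment and, with LPS, 42.2% lower and 36.4% higher. The medians of the list were −0.61 without treatment and −0.65 with LPS, and those of all genes tested were −0.05 and −0.03. Its interaction had a median of 0.01. Past the test 6 genes were higher and 6 lower, beside 31.3% and 34.7% of all genes. Over the alternatives these counts ran from 6 to 9 higher and from 2 to 6 lower. None was called, where 2.24% of all genes were called higher and 4.43% lower. Zbp1, a sensor of Z-form nucleic acid, had means of 3.08 and 0.305 FPKM without treatment and 290 and 167 with LPS, differences of −1.63 and −0.79 and an interaction of 0.84. The RNA sensors Ddx58 (RIG-I) and Dhx58 had interactions of 0.49 and 0.73, whereas Ifih1 (MDA5) had 0.01, not past the test. Of the Oas enzymes, which are activated by double-stranded RNA, Oas1g had an interaction of −0.87 and Oas3 of −0.53, opposite to the members. The related Oasl2 had 0.51.

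**Figure D5:**
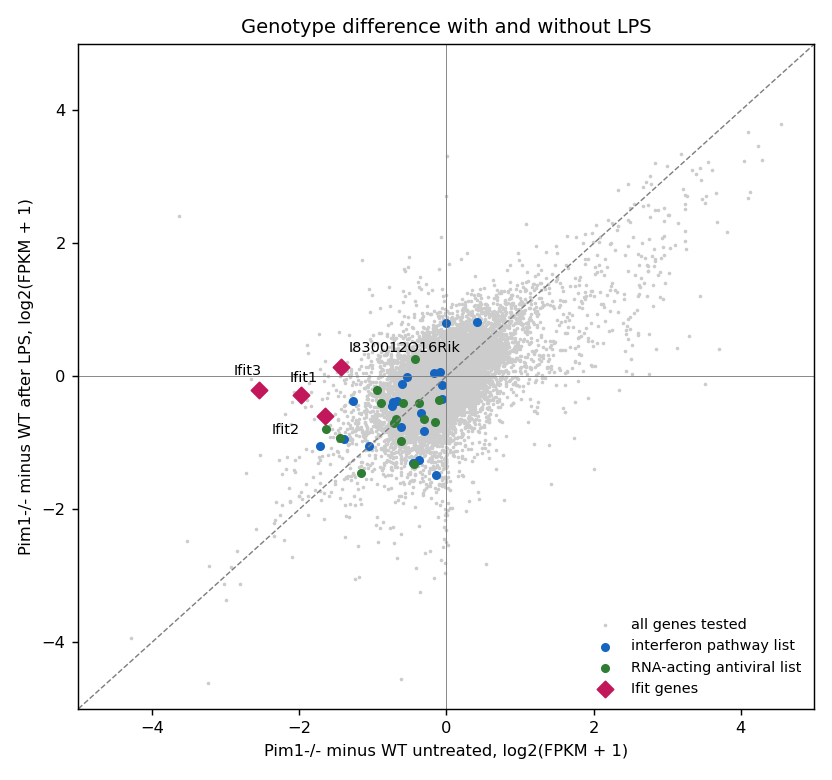
Difference between Pim1-/- and WT without treatment (horizontal) against that with LPS (vertical), both on the log2(FPKM + 1) scale, for 10581 genes, with the pathway list in blue, the RNA-acting antiviral list in green and the Ifit genes as red diamonds. The broken line marks equal differences. The 4 Ifit genes lie above it, at −2.54 to −1.43 without treatment and −0.60 to 0.15 with LPS, where Ifit3 changes sign with LPS under quantile normalization and equal FPKM sums.

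The genes whose levels ran most like each member were found by the root mean square difference over the 12 libraries, with every gene taken as log2(FPKM + 1) minus its own mean in untreated WT libraries. Most of the distance in this measure comes from the rise with LPS. Ifit1 was nearest to Cmpk2 (0.29), Gbp5 (0.45), Ifit2 (0.47), Gbp2 (0.57) and AW112010 (0.63). Cmpk2 is a mitochondrial nucleotide kinase induced by interferon, and it had differences of −1.48 without treatment and −0.65 with LPS. Ifit2 was nearest to Gbp2 and Isg15 (both 0.22), then AW112010, Gbp3 and Cmpk2 (each 0.43). Isg15 encodes the ubiquitin-like protein of the interferon response, and the Gbp genes encode guanylate-binding proteins.

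Ifit3 had no gene as near as those. Its nearest were Pyhin1 (0.65), Irf7 (0.68), Zbp1 (0.71), Fam26f (0.75) and Gm12250 (0.79). I830012O16Rik was nearest to Icam1 (0.28), the related Gm14446 (0.35), Gbp7 (0.36), Ifi204 (0.41) and Zbp1 (0.44). These genes were chosen as near over the same 12 libraries, so a like interaction follows in part from the choice. The largest interactions among those outside the members were 1.31, 1.30 and 1.16, of Gbp3, Gm14446 and Gbp7, and the others were smaller. Gbp3 and Gbp7 had differences of −1.36 and −1.28 without treatment. With LPS the difference of Gbp3 was −0.05, not past the test, and that of Gbp7 was −0.13. The members were not each other's nearest genes apart from Ifit2 for Ifit1. For I830012O16Rik the nearest member was Ifit3, at place 78 with 0.93.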

How the data were processed

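RNA was measured by RNA-seq in 12 libraries. Per the labels and the methods, mRNA libraries were made with a stranded kit and sequenced on a NovaSeq system, and the submitters' processing notes name bcl2fastq 2.20.0.422, cutadapt 1.18, TopHat2 2.0.13, Cuffdiff 2.2.1 and the build mm10, while the methods name a rat genome and the gene names are mouse symbols. The authors deposited 1 column of values per library without a stated unit, read as FPKM from Cuffdiff. No source used here says how libraries were normalized to each other. In the values, the median ratio of each library to the gene means over all libraries was 0.996 to 1.016. FPKM sums ran from 452511 to 849323. The values thus lay close to median-ratio scaling as deposited, so rescaling by that ratio, 1 of the alternatives, could change little. The values were used as deposited. Fragments were estimated from steps between low values of 431 genes, with lengths shortened by 180 bases, and of 1242 values 80.0% fell no more than 0.1 from a whole multiple, where chance gives 20%.

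The 10581 genes that reached 1 FPKM in 3 or more libraries were fitted as log2(FPKM + 1) over 4 groups with limma 3.58.1 in R 4.3.3, with a trend, and p-values were adjusted over all of them (Benjamini-Hochberg). The thresholds (2-fold, p 0.05, FDR 0.1) follow the methods and were applied in both directions. The fit was tested on simulated data. Member ratios were compared by an exact permutation test. Tables and figures used Python 3.11.15, pandas 2.3.3, numpy 2.4.6, scipy 1.17.1, Biopython 1.88 and matplotlib 3.10.9.

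The members, lists and tests were chosen with earlier results of these data known. Named genes were the members, Pim1, related genes of the cluster, 4 neighbours on each side, both lists, the markers and the 5 genes nearest to each member. The values of some listed genes are not reported here. Same-numbered libraries of different groups were compared by the correlation, across 3646 genes at 10 FPKM or more in every library, of their deviations from the group means. It was 0.33, 0.37 and 0.46 between untreated genotypes, where unlike numbers gave −0.36 to 0.10. Between treated and untreated Pim1-/- libraries it was 0.43, 0.54 and 0.68, where unlike numbers gave −0.59 to 0.23, so the numbers pair these. Between genotypes with LPS it was 0.02, 0.37 and 0.19, where unlike numbers gave −0.27 to 0.12. Between treated and untreated WT libraries it was −0.10, 0.14 and 0.19, where unlike numbers gave −0.25 to 0.12. In these last comparisons any pairing is partial, and the first number shows none. The pairing comes from the values, since the labels do not say what a number marks. Alternatives covered the pseudocount, the filter, the scaling, the groups fitted, the replicate block, the trend and each library left out, and 1 added after the data were seen summed Ifit3 and I830012O16Rik. Promoter windows are from RefSeq (GRCm38.p6) and gene positions and transcripts from GENCODE M21.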

Additional observations from a re-analysis of the deposited data

Results flagged for a closer look

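The difference between genotypes changed with LPS in all 4 Ifit genes and in the related gene Gm14446, by the interaction test in limma. On the log2(FPKM + 1) scale, the difference with LPS minus that without treatment was 1.71 for Ifit1, 1.05 for Ifit2, 2.34 for Ifit3 and 1.58 for I830012O16Rik. It was 1.30 for Gm14446 and 0.53 for 2010002M12Rik. The latter gene rests on 1 to 3 fragments in each untreated library. It passed the filter only through the Pim1-/- libraries with LPS, where it is high, so its interaction is given as a value alone. At an FDR under 0.1 with p under 0.05, 31.3% of all genes tested had a positive interaction. The untreated WT and Pim1-/- libraries are shared by all 6 values, and the rows of Ifit3 and I830012O16Rik share sequence.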

How the results depend on the processing

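For the 4 members, the untreated difference, both responses to LPS and the interaction kept their direction and stayed past the test (p and FDR) under every alternative run and with each library left out, but the interaction of Ifit2 fell just under 2-fold, to 0.995 at the lowest, in 3 of the 12 fits without 1 library. The difference with LPS did not in 3 members. For Ifit1 it was −0.084 after quantile normalization and −0.067 with equal FPKM sums, neither past the test. For Ifit3 it was −0.20 and not past the test with a pseudocount of 0.1 or 0.01, and it reversed to 0.047 after quantile normalization and 0.0072 with equal FPKM sums. For I830012O16Rik it was 0.15 and not past the test with a pseudocount of 0.01, and it reversed to −0.15 when added to Ifit3, which by construction is mostly the value of Ifit3. It rose to 0.38 after quantile normalization and 0.35 with equal FPKM sums. The cause of the other changes was not tested. With each library left out it ran from −0.24 to −0.14 for Ifit3 and from 0.11 to 0.20 for I830012O16Rik. The difference of 2010002M12Rik without treatment lay at 0 and changed sign, 0.025 after quantile normalization and −0.0069 to 0.0047 with 1 library left out. Equal FPKM sums moved the median of all genes from −0.03 to 0.13 between genotypes with LPS, to −0.71 for LPS in WT cells and to −0.62 for LPS in Pim1-/- cells. They also turned the split of genes past the test between genotypes with LPS from 4466 lower and 3848 higher to 3104 and 5160.

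With the replicate number as a block, the interaction of Ifit1 stayed at 1.71 (SE 0.0771), and no call of a member changed under this pairing. In untreated Pim1-/- libraries Ifit1 rested on 59 to 71 fragments, Ifit2 on 225 to 242, Ifit3 on 27 to 53 and I830012O16Rik on 5 or 6, so the size of their untreated ratios is less precise than their direction. The files give no counts, so no count model was run.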
